A study of Mus musculus with 4 samples.

Results

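The immediate early genes Jun, Junb, Jund, Fos, Fosb, Egr1, Atf3, Ier2, Zfp36 and Nr4a1 were followed across the cell types of the mouse testis and between 2 diets, high-fat (HFD) and normal (ND). The genes were chosen by symbol, 10 of the 55450 genes in the deposited tables, and all 10 were found. The choice was made with earlier results of these data in view. Dissociated testis was loaded on the 10x Chromium (3' chemistry, version 3), which tags the mRNA of single cells, and gave 2 HFD and 2 ND libraries. In all 4 libraries the testis had been digested at 37 °C for 30 min before loading, with DNase I, collagenase IV (at 1 mg/mL) and dispase II (at 10 mg/mL), and no undigested testis was measured. The labels do not say that each library came from its own mouse, so every p-value below measures the spread between these libraries, which may be technical. Strain, age and length of the diet are not given in the sources used here.

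Immediate early genes are transcribed within minutes of a stimulus from factors already present in the cell, without new protein synthesis. JUN and FOS family proteins pair to form AP-1, a transcription factor; JUND is the family member that many resting cells keep, while FOS and FOSB are usually scarce until a cell is stimulated. EGR1 and NR4A1 are transcription factors of the zinc finger and nuclear receptor families, ATF3 is a stress-induced factor that can pair with JUN proteins, and ZFP36 (tristetraprolin) promotes the decay of inflammatory mRNAs. In the testis, AP-1 factors and NR4A1 are known regulators of steroidogenic genes in Leydig cells. Enzymatic digestion of tissue at 37 °C is itself known to induce many of these genes.

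After filtering and removal of called doublets, 54917 cells remained, between 13122 and 14468 per library, with a median of 5510 to 5946 UMIs (counted molecules). Clusters were given a name only from marker genes and are therefore called Leydig-like (1471 cells), macrophage-like (373), lymphocyte-like (334), fibroblast-like (253), Sertoli-like (1363), spermatogonia-like (229), early spermatocyte-like (1815), pachytene and later spermatocyte-like (7540), round spermatid-like (11702) and elongating spermatid-like (10249). The remaining 19588 cells, mostly shallow, stayed unnamed and held 11.8% of the UMIs. Pairs of libraries shared 34 to 59 barcodes, at most 0.437% of a library. Levels between classes are given as CPM, a gene's UMIs scaled to the total UMIs of the class. A 3' library counts molecules and does not gain reads with transcript length, so these levels were not divided by length.

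Promoter windows of 300 bases, from 250 bases before to 50 after the start of the gene in RefSeq (GRCm38.p6), were at hand for 8 of the 10 genes; Egr1 and Ier2 are named only. These starts are RefSeq's: GENCODE M21 begins the gene further upstream for Atf3, Zfp36 and Nr4a1, and the Jund window ends before the start that GENCODE gives. The 4 windows below are shown because the levels of Fos, Fosb and Zfp36 over the cell classes were closely correlated, while Nr4a1, which shares a motif with Fosb and Zfp36, was less so. They lie at chr7:19309996-19310295 on the minus strand (Fosb), chr7:28379179-28379478 on the minus strand (Zfp36), chr15:101266596-101266895 on the plus strand (Nr4a1) and chr12:85473640-85473939 on the plus strand (Fos), and are written 5′ to 3′ along the gene. Capitals mark matches to the EGR motif GCGGGGGCG on either strand and, in Zfp36 alone, also a CArG box (the site of serum response factor).
Fosb: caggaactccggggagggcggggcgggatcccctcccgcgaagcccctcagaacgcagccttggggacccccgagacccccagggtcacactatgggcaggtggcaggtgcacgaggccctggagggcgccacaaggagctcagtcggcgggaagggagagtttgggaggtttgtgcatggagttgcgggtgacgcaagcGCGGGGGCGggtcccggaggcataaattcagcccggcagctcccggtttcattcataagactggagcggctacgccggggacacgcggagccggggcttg
Zfp36: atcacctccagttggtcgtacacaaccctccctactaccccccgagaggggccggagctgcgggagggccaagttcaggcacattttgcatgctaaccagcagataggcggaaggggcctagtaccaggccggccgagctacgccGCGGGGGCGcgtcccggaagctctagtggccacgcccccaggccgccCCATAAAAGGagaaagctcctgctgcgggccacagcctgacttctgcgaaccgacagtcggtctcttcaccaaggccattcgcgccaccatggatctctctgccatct
Nr4a1: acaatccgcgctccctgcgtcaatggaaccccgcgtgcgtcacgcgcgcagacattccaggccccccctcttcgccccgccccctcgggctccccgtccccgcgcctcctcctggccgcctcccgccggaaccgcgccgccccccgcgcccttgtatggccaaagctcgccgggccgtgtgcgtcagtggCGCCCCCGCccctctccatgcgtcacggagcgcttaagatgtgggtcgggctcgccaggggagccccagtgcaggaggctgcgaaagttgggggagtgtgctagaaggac
Fos: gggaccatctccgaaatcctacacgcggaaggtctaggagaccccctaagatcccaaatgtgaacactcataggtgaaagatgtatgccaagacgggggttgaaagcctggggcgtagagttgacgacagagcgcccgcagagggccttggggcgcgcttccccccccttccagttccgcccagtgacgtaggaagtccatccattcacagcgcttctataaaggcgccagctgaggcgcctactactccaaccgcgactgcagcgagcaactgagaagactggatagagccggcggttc
The EGR motif began 50 bases before the start in Fosb, 105 before it in Zfp36 and 60 before it in Nr4a1, and the CArG box 58 before the start in Zfp36; no matches overlapped. Over all 32851 windows of this length, 2.91% held the EGR motif and 1.63% a CArG box. Neither the cAMP response element TGACGTCA (1.79% of windows) nor the AP-1 site TGACTCA (5.20%) was found on either strand of the 8 windows. For these 2 sites only the exact letters were searched, so variants that differ by a base were not counted. Sites of any kind outside the windows were not covered. A match is a description of the letters and not a measured binding site.

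Fos and Fosb, the inducible AP-1 partners, had their highest levels in cells between the tubules and low levels in most germ-cell classes. Of all 4159 Fos UMIs, 72.6% were in Leydig-like, 15.3% in macrophage-like and 3.46% in fibroblast-like cells, against 5.39% in all germ-cell classes together. Fos in Leydig-like cells was at 370, 459, 373 and 283 CPM in HFD 1, HFD 2, ND 1 and ND 2, and in macrophage-like cells at 528, 403, 690 and 521 CPM. These ranges overlapped, and that of Leydig-like cells also overlapped the range of fibroblast-like cells (222 to 340 CPM), which lay below that of macrophage-like cells. Lymphocyte-like cells held 27.8 to 71.3 CPM, spermatogonia-like cells 7.16 to 27.7 CPM and Sertoli-like cells 1.24 to 4.97 CPM. The meiotic and spermatid classes did not pass 1.61 CPM in any library. Fosb was at 214, 168, 184 and 230 CPM in macrophage-like cells, above every library of every other class. Fibroblast-like (42.6 to 125 CPM) and Leydig-like cells (41.2 to 75.0 CPM) followed and overlapped each other. No meiotic or spermatid class passed 1.64 CPM of Fosb in any library, but these large classes held part of its 1126 UMIs: 20.8% were in germ-cell classes, of which round and elongating spermatid-like cells held 16.6% of the total.

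**Figure D1:**
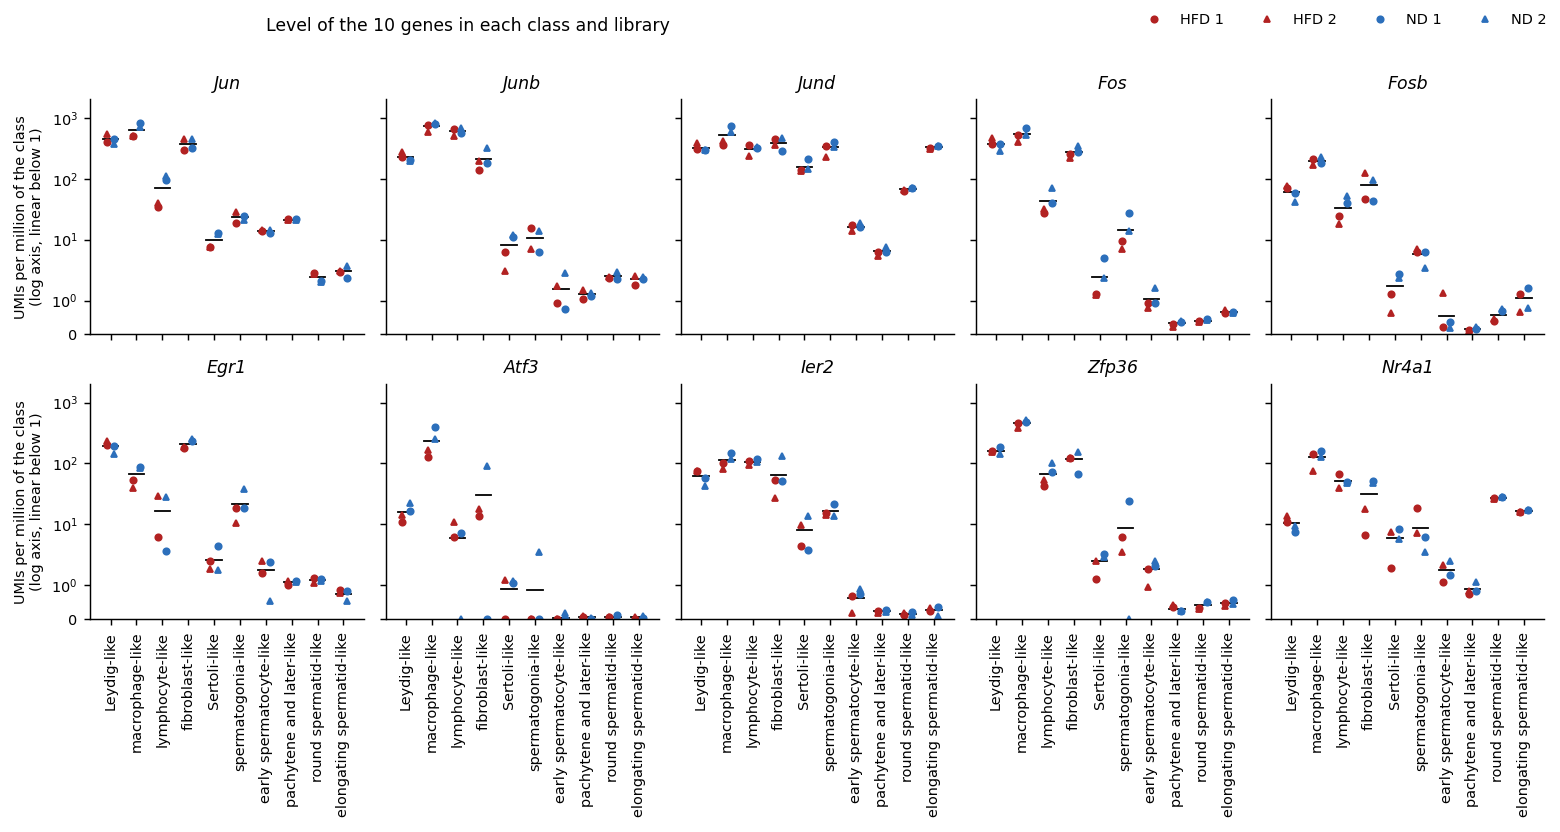
CPM in the class (log axis, linear below 1) for each of the 10 genes in the 10 named classes; each point is a library (red HFD, blue ND), each bar the mean of the 4 libraries. Fos, Fosb, Egr1, Atf3, Ier2 and Zfp36 are highest in interstitial classes, Jund is also high in elongating spermatid-like cells (312 to 349), and Nr4a1 is above its Leydig-like level in round spermatid-like cells (26.6 to 28.4).

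Zfp36, Atf3, Egr1 and Ier2 were highest in interstitial classes as well. Zfp36 was at 458, 378, 486 and 511 CPM in macrophage-like cells, above all other classes, and at 145 to 183 CPM in Leydig-like cells. Atf3 was highest in macrophage-like cells (127, 164, 391 and 249 CPM), which held 57.6% of its 479 UMIs, against 11.1 to 22.5 CPM in Leydig-like cells. Egr1 had another order: fibroblast-like cells (182, 187, 230 and 250 CPM) and Leydig-like cells (203, 238, 193 and 141 CPM) overlapped each other, and both lay above macrophage-like cells (39.3 to 88.4 CPM). Ier2, a small nuclear regulator, was at 82.1 to 150 CPM in macrophage-like and 93.4 to 119 CPM in lymphocyte-like cells, which overlapped. In round spermatid-like cells Zfp36, Atf3 and Ier2 were each under 0.510 CPM in all libraries.

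Among the JUN genes, Junb had its highest levels in both leukocyte classes. It was at 755, 596, 799 and 828 CPM in macrophage-like and 663, 503, 570 and 674 CPM in lymphocyte-like cells, which overlapped. Leydig-like cells held 198 to 275 CPM and fibroblast-like cells 142 to 319 CPM. Of its 4695 UMIs, 39.0% were in Leydig-like, 18.8% in macrophage-like and 14.55% in lymphocyte-like cells. Jun was also highest in macrophage-like cells (498, 510, 812 and 711 CPM) and Leydig-like cells (401, 551, 450 and 373 CPM), which overlapped each other; fibroblast-like cells (297 to 451 CPM) overlapped the latter, but lymphocyte-like cells held only 33.9 to 111 CPM. Unlike Fos, Jun had a steady level in pachytene and later spermatocyte-like cells, at 21.8, 21.0, 21.6 and 21.3 CPM. That class is large and deeply sampled, and it held 37.7% of all Jun UMIs, against 32.2% in Leydig-like cells. By library these shares were 42.8%, 41.4%, 31.6% and 34.4% against 28.5%, 30.8%, 37.1% and 32.8%, so the order was reversed in ND 1. Levels in round and elongating spermatid-like cells were lower (2.05 to 3.72 CPM).

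**Figure D2:**
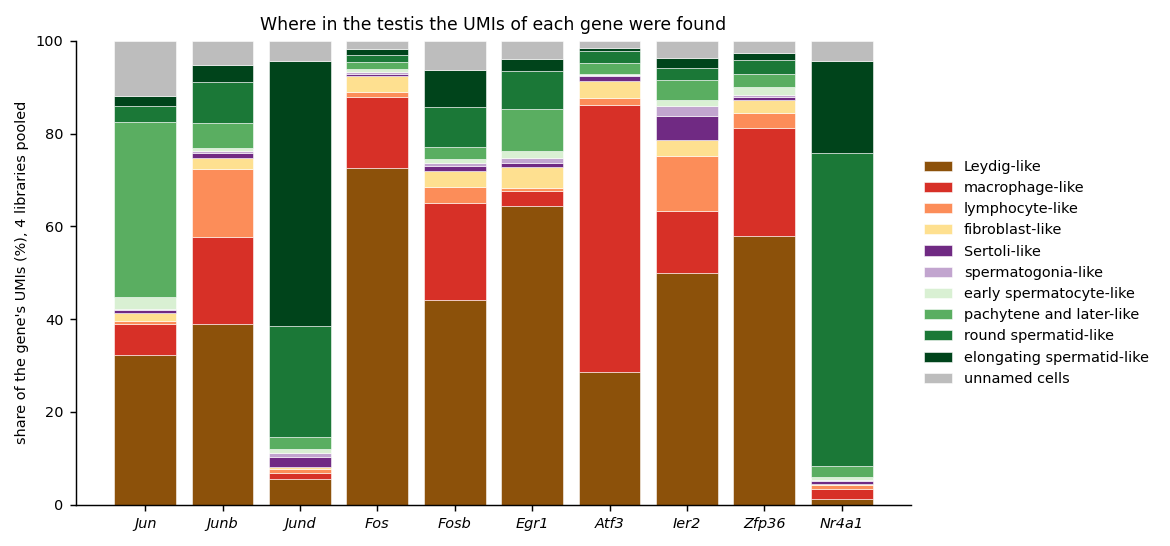
Share of each gene's UMIs (vertical axis, percent, 4 libraries pooled) found in each class; unnamed cells are grey. Leydig-like cells hold 72.6% of Fos and macrophage-like cells 57.6% of Atf3, while round and elongating spermatid-like cells together hold 81.0% of Jund and 87.1% of Nr4a1.

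Jund differed from the other JUN genes in having most of its UMIs in spermatids. Round and elongating spermatid-like cells together held 81.0% of its 46964 UMIs, and the 4 interstitial classes 8.11%. By mean level it was highest in macrophage-like (354 to 731 CPM) and fibroblast-like cells (281 to 458 CPM). In elongating spermatid-like cells it was at 320, 312, 348 and 349 CPM, which overlapped fibroblast-like, Leydig-like (293 to 389 CPM), lymphocyte-like (237 to 364 CPM) and spermatogonia-like cells (229 to 406 CPM). Between these it was low: early spermatocyte-like cells held 13.9 to 18.8 CPM and pachytene and later spermatocyte-like cells 5.35 to 7.63 CPM. Sertoli-like cells held 136 to 208 CPM of Jund beside 75690 to 91040 CPM of summed elongating spermatid markers, against 143900 to 152600 CPM of these markers in elongating spermatid-like cells; the part of spermatid RNA in this Jund level was not tested.

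When the spermatid clusters were put in order within a class by their summed elongating spermatid markers, Jund and Nr4a1 differed in profile. Jund had a mean over the 4 libraries of 20.6, 37.4, 74.1 and 179 CPM in the 4 round spermatid-like clusters, in rising order of those markers. In the elongating spermatid-like clusters it was at 413 CPM (cluster 2) and 362 CPM (cluster 0), and at 60.4 CPM (cluster 1) and 45.9 CPM (cluster 6). Cluster 1, led by Car2 and Prm2 among others, and cluster 6, led by Smcp and Azin2 among others, were also the shallowest of the 4, with medians of 3757 and 1986 UMIs. Nr4a1 was at 24.0, 24.7, 29.6 and 35.2 CPM in the same round spermatid-like clusters and at 19.3, 16.9, 9.33 and 4.40 CPM in elongating clusters 2, 0, 1 and 6. Round and elongating spermatid-like cells held 87.1% of the 6792 Nr4a1 UMIs, although its level was highest in macrophage-like cells (74.9 to 163 CPM). Leydig-like cells, in which NR4A1 is best known, held 7.48 to 13.6 CPM.

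**Figure D3:**
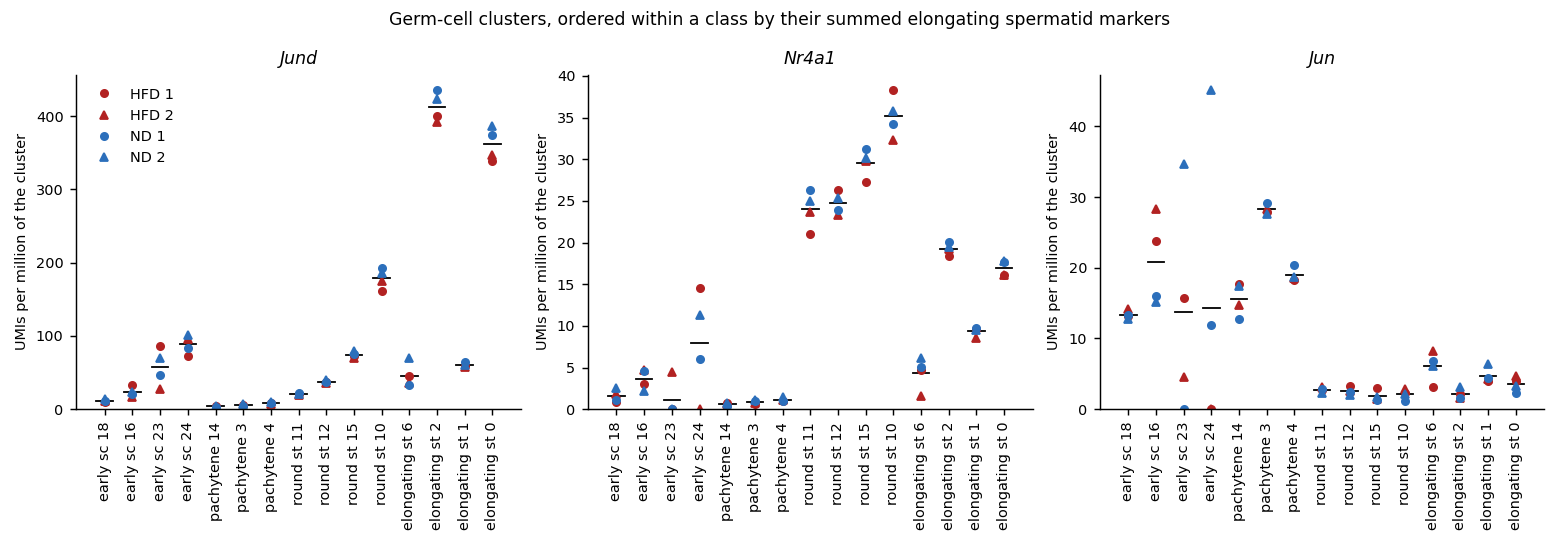
Level of Jund, Nr4a1 and Jun (CPM in the cluster, linear axes) in the germ-cell clusters from early spermatocyte-like to elongating spermatid-like, ordered within each class by summed elongating spermatid markers; points are libraries, bars their mean. Jund rises to 413 in elongating cluster 2 and is at 45.9 in cluster 6, Nr4a1 peaks at 35.2 in a round spermatid-like cluster, and Jun is highest in pachytene cluster 3 at 28.3.

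The genes were also found together in single cells. Each cell was thinned to 2000 UMIs, and shallower cells were left out. At least 3 of the 10 genes were then detected in 72.3%, 65.2%, 80.0% and 72.5% of the macrophage-like cells of HFD 1, HFD 2, ND 1 and ND 2 (65 to 70 cells each). In Leydig-like cells the shares were 36.9%, 45.4%, 36.3% and 28.3% (260 to 392 cells each). At 2000 UMIs the exact Clopper-Pearson 95% intervals of the 2 classes did not overlap within any library. They were closest in HFD 2 (52.8% to 76.3% against 39.2% to 51.7%), and they cover counting error only. Thinned to 3000 UMIs, those of HFD 2 overlapped (53.7% to 88.9% against 51.2% to 64.3%). With no thinning those of HFD 1 and HFD 2 overlapped. At 2000 UMIs, Sertoli-like cells reached 1.76% at most, in ND 1. None of the 2445 to 3328 round spermatid-like cells per library reached 3 genes, which at this depth allows a share of up to 0.151%. Without thinning, 1.82% to 3.69% of round spermatid-like cells held 3 or more. Fos alone was detected in 27.0% to 37.3% of thinned Leydig-like cells (median 5779 to 6452 UMIs before thinning) and in 0.0590% to 0.185% of pachytene and later spermatocyte-like cells (median 23190 to 28640 UMIs), which was taken as the background. That class had the lowest mean Fos level of the 10 classes, 0.327 CPM. Elongating spermatid-like cells, nearer in depth to Leydig-like cells, held 0.659 CPM.

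Within a class the genes were not evenly spread. Of the 2 fibroblast-like clusters, cluster 19 (99 cells) held Fos at 762, 455, 609 and 651 CPM and cluster 28 (154 cells) at 10.0, 0, 0 and 40.8 CPM. Jun was at 628 to 856 CPM in the former and 30.1 to 150 CPM in the latter. These levels rest on few cells: a single cell held 47.4%, 44%, 34.4% and 20.4% of the fibroblast-like Fos UMIs in HFD 1, HFD 2, ND 1 and ND 2. Leydig-like cells likewise fell into cluster 20 (1171 cells, led by Insl3, Ptgds and Cyp17a1) and cluster 13 (300 cells, median 2398 UMIs), whose leading genes included the nuclear long noncoding RNAs Malat1, Neat1 and Meg3. Fos was at 308 to 504 CPM in cluster 20 and 27.8 to 71.5 CPM in cluster 13. Cluster 13 made up 35.2% of the Leydig-like cells of HFD 1, 17.5% of HFD 2, 11.2% of ND 1 and 19.9% of ND 2. It therefore weighs most on HFD 1, and Leydig-like results are given below with and without it.

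Over the 10 named classes, the mean levels on a log2(CPM + 1) scale were most alike for Fosb and Zfp36 (Pearson r = 0.992 across classes), Fos and Zfp36 (0.987) and Fos and Fosb (0.986). The least alike pairs were Jun with Nr4a1 (0.436), Jun with Jund (0.450) and Egr1 with Nr4a1 (0.491). These are descriptions over 10 classes that share libraries and depth. Outside the 10 genes, Ier3, an immediate early gene, had the most similar profile to Fos (r = 0.997), Fosb (0.990) and Zfp36 (0.990) among 12377 genes. The nearest profiles to Jund were those of Midn (0.964), Zmiz1 (0.952) and Tpm3 (0.949), and profiles close to Nr4a1 included those of Iqgap1 (0.932) and Klf2 (0.912). The nearest to Junb was H2-T23 (0.990), to Egr1 Cyp20a1 (0.990), to Atf3 Ang (0.990) and to Ier2 Rgs2 (0.996).

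The study asked how testis cell types differ between the diets. In macrophage-like cells, Jun, Jund and Atf3 were lower in HFD. Here and below, levels are CPM with TMM factors, a change is the log2 of HFD divided by ND, with its standard error (SE), and adjusted p-values come from edgeR's quasi-likelihood test with Benjamini-Hochberg adjustment over all genes tested in the class. Jund was at 391 and 448 CPM in HFD and 836 and 673 CPM in ND (means 420 ± 40.8 and 754 ± 115, SD, n = 2 each), and fell by 0.85 (SE 0.16, adjusted p = 9.67e-05). Both HFD libraries lay below both ND libraries. Atf3 was at 140 and 179 CPM against 447 and 285 CPM and fell by 1.19 (SE 0.22, adjusted p = 0.000133). Its groups did not overlap, and the most Atf3 UMIs any 1 cell held was 14.8% of the class, in ND 1. Jun was at 549 and 558 CPM against 929 and 813 CPM and fell by 0.65 (SE 0.14, adjusted p = 0.00151), again without overlap.

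In all, 3 of the 10 genes passed the test in macrophage-like cells, each lower in HFD; of all 5639 genes tested there, 2.27% were called lower. The ratio was negative for each of the 10 genes, and for 8 of them both HFD libraries lay below both ND libraries (19.3% of all genes tested). Their median change was −0.51, against 0.00 over all genes. This shift was not particular to the class. The median was −0.51 in lymphocyte-like cells (7 of 8 tested genes negative, 0 called). In Sertoli-like cells it was −0.57 (5 of 5 tested negative, 0 called), and in Leydig-like cells it was 0.29. In macrophage-like cells the 7 that did not pass were Egr1 at −0.94 (SE 0.34), Ier2 at −0.57 (SE 0.28), Nr4a1 at −0.46 (SE 0.27), Fos at −0.43 (SE 0.16), Junb at −0.32 (SE 0.14), Zfp36 at −0.31 (SE 0.16) and Fosb at −0.17 (SE 0.22). The smallest of their adjusted p-values was 0.177, for Fos. Leaving out 1 library in turn, Nr4a1 ran from −0.08 to −1.03, Fos from −0.22 to −0.66, Junb from −0.17 to −0.52, Zfp36 from −0.18 to −0.47, Ier2 from −0.39 to −0.76, Egr1 from −0.74 to −1.20 and Fosb from −0.01 to −0.38; the lowest size came without HFD 2 for Nr4a1, Junb, Zfp36, Egr1 and Fosb and without ND 1 for Fos and Ier2. The 3 calls depended on the analysis: DESeq2 called Jund alone (adjusted p = 0.0429), none passed when the cells were clustered with the listed genes among the variable genes (adjusted p of Atf3 0.0501, Jund 0.0754, Jun 0.141), and with doublets kept Jund alone passed. Jun was lost without HFD 1 (adjusted p = 0.0503) and Atf3 without ND 1 (adjusted p = 0.123), and Fos passed without ND 2 (−0.63, adjusted p = 0.0335).

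**Figure D4:**
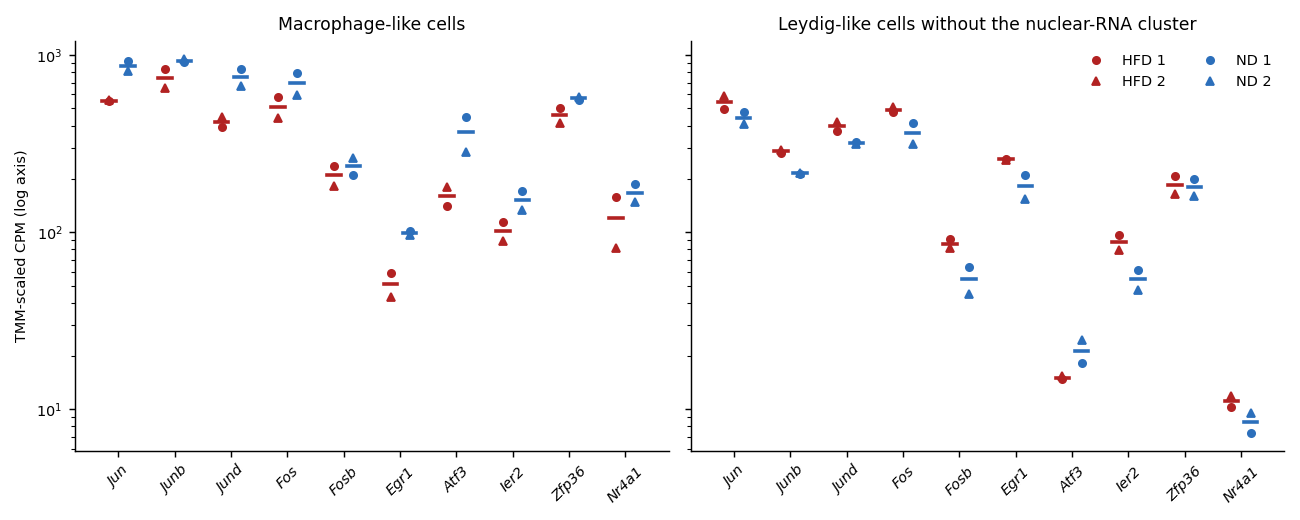
TMM-scaled CPM (log axis) of the 10 genes in each library, in macrophage-like cells (left) and in Leydig-like cells without the cluster led by nuclear noncoding RNAs (right); points are libraries and bars the mean of a diet. In macrophage-like cells Jund sits at 391 and 448 in HFD against 836 and 673 in ND, whereas in these Leydig-like cells it sits at 375 and 419 against 324 and 315. Leaving out that cluster was chosen after seeing the data. With it kept, Jund in Leydig-like cells overlapped between diets, at 303.5 and 391.8 against 309.4 and 297.9.

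Some other inducible genes passed the test in macrophage-like cells as well, where, as above, 2.27% of all genes were called lower. Of 23 tested immediate early genes outside the 10, 8 had a positive and 15 a negative change; 4 fell and none rose: Klf2 by 0.97 (SE 0.17, adjusted p = 4.89e-05), Klf6 by 0.80 (SE 0.19, adjusted p = 0.00395), the small GTPase gene Rhob by 1.19 (SE 0.23, adjusted p = 0.000236) and the kinase gene Pim1 by 1.01 (SE 0.27, adjusted p = 0.0193). Their median was −0.28. Of 13 heat shock and dissociation genes, 11 were tested, of which 2 had a positive change and 3 fell. Hspa1a, an inducible HSP70, was at 295 and 238 CPM in HFD and 937 and 773 CPM in ND, and fell by 1.68 (SE 0.17, adjusted p = 1.29e-12). Hsph1 fell by 1.67 (SE 0.42, adjusted p = 0.00833) and Hspa1b by 1.19 (SE 0.24, adjusted p = 0.000449). None of the 3 tested feedback inhibitors and none of the 12 tested upstream kinases and factors passed. Beside these results stand other differences of the class. The summed level of the 7 macrophage markers was 9123 and 9833 CPM in HFD and 13260 and 13270 CPM in ND, and that of the 6 Leydig markers 331 and 139 CPM against 68.0 and 55.0 CPM. Early spermatocyte markers summed to 297 and 703 CPM against 245 and 204 CPM, and round spermatid markers to 307 and 314 CPM against 394 and 359 CPM. Median UMIs per cell were 3266 and 2618 against 2271 and 2410. Their part in the result was not tested.

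In Leydig-like cells none of the 10 genes passed the test, and the ratios pointed the other way for most of them. Among all 12264 genes tested, 0.709% were called. Fos was at 366 and 462 CPM in HFD and 388 and 287 CPM in ND, a change of 0.29 (SE 0.18) with overlapping groups. Jun (0.17), Jund (0.19), Junb (0.29), Egr1 (0.35), Fosb (0.49), Nr4a1 (0.49) and Ier2 (0.52) had positive changes too, and Zfp36 was at −0.09. The change of 8 of the 10 genes was positive, and for Junb, Fosb, Ier2 and Nr4a1 both HFD libraries lay above both ND libraries (24.3% of all genes). Atf3 was at 11.0 and 14.3 CPM against 17.4 and 22.9 CPM, a change of −0.69 (SE 0.30, adjusted p = 0.232). At an unadjusted p under 0.05 in edgeR, Fosb, Atf3 and Ier2 passed, 3 genes in all, at a threshold that 18.4% of all genes passed, while DESeq2 and limma-voom called 0 after adjustment. Without HFD 1, Fos passed (0.45, adjusted p = 0.0357), among 164 of 12952 genes called in that fit. Without HFD 2, Ier2 (0.52, adjusted p = 0.0233) and Atf3 (−0.88, adjusted p = 0.0306) passed, among 3005 of 13049 genes. Over the fits without 1 library the change of Fos ran from 0.09 to 0.52. Egr1 ran from 0.13 to 0.62, Junb from 0.12 to 0.43 and Fosb from 0.23 to 0.78. Ier2 ran from 0.31 to 0.76 and Atf3 from −0.47 to −0.88. Hspa1a fell here too, by 1.08 (SE 0.23, adjusted p = 0.0309), and Hspa1b by 1.28 (SE 0.29, adjusted p = 0.0404). The summed Leydig markers were 12270 and 14710 CPM in HFD against 19680 and 15990 CPM in ND, those of pachytene and later spermatocytes 5420 and 3573 CPM against 2706 and 3042 CPM, and those of round spermatids 290 and 282 CPM against 221 and 241 CPM. Fibroblast (73.3 and 103 against 127 and 146 CPM), Sertoli (235 and 236 against 304 and 294 CPM), peritubular myoid (122.5 and 138 against 147 and 150 CPM) and spermatogonia markers (114 and 146 against 181 and 155 CPM) were lower in HFD. Early spermatocyte markers were at 286 and 136 CPM against 132 and 133 CPM. Median mitochondrial UMIs were 2.98% and 3.41% against 3.79% and 3.62%. The part of all these differences in the changes was not tested.

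Without cluster 13, an alternative chosen after seeing the data, 6 of the 10 genes were higher in HFD in Leydig-like cells, where 2.06% of 11630 genes were called higher. Cluster 13 was low in Fos and had its largest share in HFD 1, where Fos was at 366 CPM with it and 477 CPM without it. No library was left out in turn from this fit, so its dependence on single libraries was not tested. Fos was at 477 and 509 CPM in HFD and 413 and 313 CPM in ND and rose by 0.44 (SE 0.10, adjusted p = 0.00367). Egr1 was at 260 and 256 CPM against 210 and 154 CPM and rose by 0.50 (SE 0.11, adjusted p = 0.003). Ier2 rose by 0.70 (adjusted p = 0.00267), Fosb by 0.67 (adjusted p = 0.00489), Junb by 0.41 (adjusted p = 0.00532) and Jund by 0.31 (adjusted p = 0.0348). The HFD libraries lay above the ND libraries for each of these 6 genes (22.9% of all genes). Jun (0.29, adjusted p = 0.0659), Nr4a1 (0.38), Zfp36 (0.05) and Atf3 (−0.51) did not pass. The summed Leydig markers were here 16030 and 16120 CPM in HFD against 20940 and 17330 CPM in ND, and those of pachytene and later spermatocytes 3391 and 3066 CPM against 2310 and 2510 CPM, while round spermatid markers overlapped (202 to 221 CPM). Early spermatocyte markers were at 167 and 124 CPM against 94.6 and 111 CPM. Fibroblast markers (92.7 and 107 against 134 and 156 CPM), peritubular myoid markers (138 and 145 against 156 and 158 CPM), Sertoli markers (297 and 259 against 322 and 314 CPM) and spermatogonia markers (145 and 147 against 183 and 160 CPM) were lower in HFD. The part of these markers was not tested. Of 27 other immediate early genes 2 rose, and of 13 heat shock and dissociation genes 1 rose and 2 fell, beside 2.06% of all genes called higher and 2.19% called lower.

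**Figure D5:**
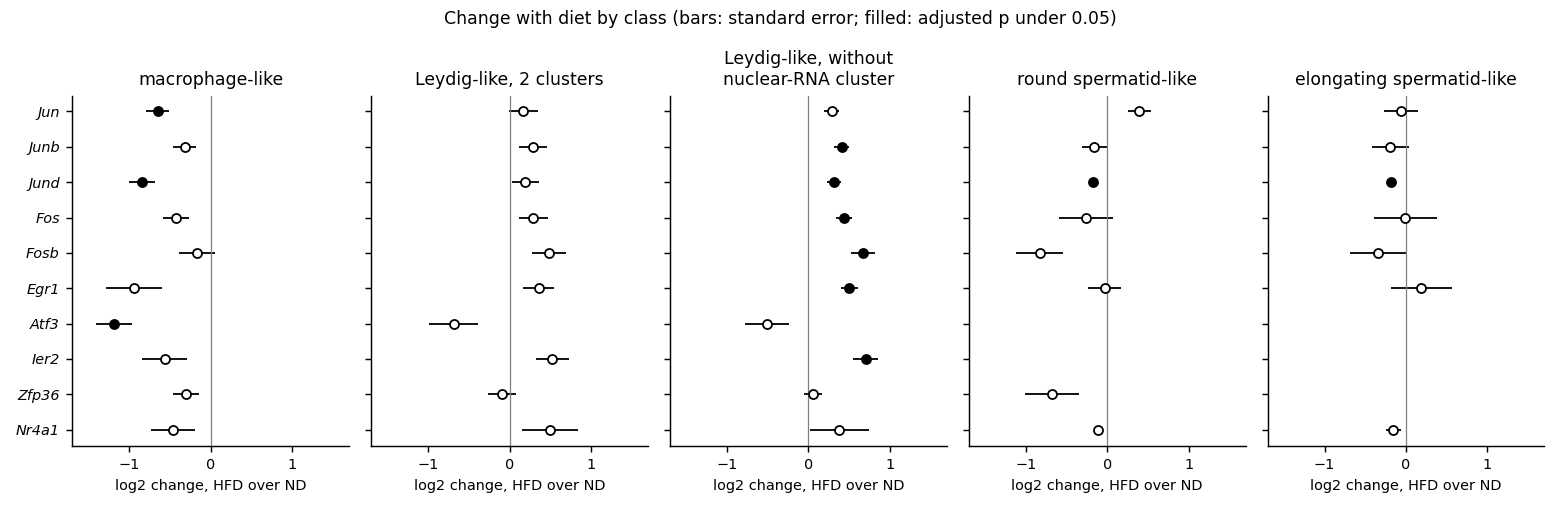
Log2 change of HFD over ND for the 10 genes (points) with the standard error (bars) in macrophage-like, Leydig-like (with and without the cluster led by nuclear noncoding RNAs), round spermatid-like and elongating spermatid-like cells; filled points have an adjusted p under 0.05 and untested genes are left out. All 10 macrophage-like values lie below 0, from −0.17 to −1.19, and 8 of 10 Leydig-like values lie above it.

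Whether 2 classes responded differently was tested for 21 pairs of classes, each as an interaction in 1 fit with a term for the library. Only pairs holding a class in which a gene of the 10 had been called were tested, so the same counts chose the pairs. Adjustment covered the genes of a pair and not the number of pairs. The changes of Jund in Leydig-like and macrophage-like cells differed by 1.05 (SE 0.23, adjusted p = 0.0485, a pair in which 0.0879% of 11382 genes were called). This call was lost without the library term (1.06, adjusted p = 0.0626), without ND 1 (0.92, adjusted p = 1) and without ND 2 (1.17, adjusted p = 0.693). Leaving out cluster 13, the difference was 1.12 (adjusted p = 0.000159). Fosb in Leydig-like against round spermatid-like cells differed by 1.38 (SE 0.39, adjusted p = 0.0463; 1.02% of 20379 genes called), where the round spermatid-like level was under 0.773 CPM in every library. That call was lost without the library term (1.37, adjusted p = 0.0772), without HFD 1 (1.31, adjusted p = 0.33), without ND 1 (1.73, adjusted p = 0.701) and without ND 2 (1.01, adjusted p = 0.944). No other gene of the 10 passed in any of the 21 pairs in these fits, in which 0% to 5.05% of all genes were called. Other fits called other genes. Without the library term, Jun differed between macrophage-like and pachytene and later spermatocyte-like cells (−0.68, adjusted p = 0.00249), and Jun (−1.03, adjusted p = 0.00717) and Jund (−0.65, adjusted p = 0.0168) between macrophage-like and round spermatid-like cells. Fits without that term treat the sums of 2 classes from 1 library as independent. The share of all genes called was not computed for these pairs. Leaving out cluster 13, Jun (0.91, adjusted p = 0.00155), Fos (0.84, adjusted p = 0.0106) and Junb (0.70, adjusted p = 0.0359) also differed between Leydig-like and macrophage-like cells, and Jund (0.51, adjusted p = 6.89e-05) and Fosb (1.52, adjusted p = 0.0125) between Leydig-like and round spermatid-like cells. In these fits 32 of 11088 and 197 of 20435 genes were called. Without HFD 1, the differences between Leydig-like and macrophage-like cells were 1.025 (Jun), 0.94 (Junb) and 1.09 (Fos). That of Jund between Leydig-like and round spermatid-like cells was 0.555.

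Jund was also lower in spermatids of HFD mice, by a small amount. In elongating spermatid-like cells it was at 318 and 305 CPM in HFD and 353 and 356 CPM in ND and fell by 0.19 (SE 0.04, adjusted p = 0.00625), 1 of 7 genes tested, where 2.08% of all genes were called lower. In round spermatid-like cells it was at 62.3 and 64.4 CPM against 70.8 and 72.2 CPM and fell by 0.17 (SE 0.04, adjusted p = 0.0305), 1 of 8 tested, where 1.88% were called lower. Groups did not overlap in either class (23.7% of genes in the former and 24.3% in the latter lay lower in both HFD libraries). The elongating call was lost without HFD 2 and with doublets kept. The round spermatid call was lost in 9 of 15 alternatives, among them DESeq2 and the fits without HFD 1 or HFD 2. The make-up of the round class differed too: cluster 11, the lowest in Jund, held 40.2% and 41.6% of HFD cells and 35.1% and 34.4% of ND cells. Within clusters, plain CPM of Jund was lower in both HFD libraries in cluster 10 (161 and 175 against 193 and 186), cluster 11 (20.6 and 19.1 against 21.6 and 21.2) and cluster 15 (72.1 and 69.6 against 75.1 and 79.7), and overlapped in cluster 12. The same held for elongating clusters 2 (401 and 392 against 435 and 424), 0 (339 and 346 against 375 and 386) and 1 (58.5 and 58.3 against 64.1 and 60.6), with overlap in cluster 6. No test was run within clusters, and the share of all genes lying lower in both HFD libraries was not computed there. Summed elongating spermatid markers were lower in HFD as well, at 11570 and 11650 CPM against 12350 and 12500 CPM in round spermatid-like cells and at 148800 and 143900 CPM against 152500 and 152600 CPM in elongating spermatid-like cells. Pachytene and later spermatocyte markers lay the other way, at 9698 and 9720 CPM against 9530 and 9428 CPM in the former and 7113 and 7200 CPM against 6790 and 6858 CPM in the latter; their part in the Jund values was not tested. Nr4a1 in round spermatid-like cells was at 26.7 and 26.3 CPM against 28.6 and 28.7 CPM, a change of −0.11 (SE 0.05, adjusted p = 0.234). The other tested genes of round spermatid-like cells did not pass either, from Fosb (−0.83, SE 0.29), Zfp36 (−0.68) and Fos (−0.26) through Junb (−0.16) and Egr1 (−0.03) to Jun (0.39, SE 0.14, adjusted p = 0.157). In elongating spermatid-like cells Fosb (−0.34), Junb (−0.19), Nr4a1 (−0.16), Jun (−0.06), Fos (−0.01) and Egr1 (0.19) did not pass. Atf3 and Ier2 were too low to be tested in both classes, and Zfp36 in the latter.

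In the remaining classes no gene of the 10 passed in edgeR, and 0 passed in DESeq2 or limma-voom. Junb in Sertoli-like cells, the largest of these values after Jun in lymphocyte-like cells, was at 6.54 and 3.18 CPM in HFD and 11.4 and 11.7 CPM in ND (−1.24, SE 0.43, adjusted p = 0.256; 0.152% of all genes called). Jun in Sertoli-like cells had a change of −0.71 (SE 0.38), Nr4a1 of −0.57 (SE 0.47), Jund of −0.35 (SE 0.13) and Ier2 of −0.22 (SE 0.43). Jun in lymphocyte-like cells was at 39.1 and 43.6 CPM against 107 and 124 CPM (−1.47, SE 0.36, unadjusted p = 0.0023 and adjusted p = 1.00 by edgeR; 0.0579% of genes called). In both cases the HFD libraries lay below the ND libraries (18.2% of genes in Sertoli-like and 13.8% in lymphocyte-like cells), but these values rest on 5 to 28 UMIs per library. Without ND 1, Jun in lymphocyte-like cells passed (−1.60, adjusted p = 0.0476), and without ND 2, Jund passed in Sertoli-like cells. The other lymphocyte-like values were Fosb at −1.06 (SE 0.49), Fos at −0.87 (SE 0.46), Zfp36 at −0.85 (SE 0.37), Ier2 at −0.17, Jund at −0.10, Junb at −0.09 and Nr4a1 at 0.15. Fibroblast-like (7 genes tested, 0% of all genes called), early spermatocyte-like (5 tested, 0.612% called) and pachytene and later spermatocyte-like cells (8 tested, 4.58% called) gave no call. Jun in pachytene and later spermatocyte-like cells, its steady germ-cell site, was at 22.1 and 21.1 CPM against 21.4 and 21.1 CPM, a change of 0.02 (SE 0.05). The other values of that class ran from Fos (−0.46, SE 0.35), Nr4a1 (−0.29), Jund (−0.23), Ier2 (−0.10) and Egr1 (−0.03) to Junb (0.04) and Zfp36 (0.71, SE 0.35). Early spermatocyte-like values ran from Zfp36 (−0.73, SE 0.48), Nr4a1 (−0.25) and Jund (−0.17) to Jun (0.09) and Egr1 (0.51, SE 0.53). Fibroblast-like values ran from Junb (−0.65, SE 0.30), Egr1 (−0.41), Fos (−0.38) and Jun (−0.13) to Zfp36 (0.08), Jund (0.11) and Fosb (0.14).

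Summed over the whole testis, 4 of the 10 genes were lower in HFD, among genes of which 18.9% were called lower. Atf3 was at 0.50 and 0.63 CPM in HFD and 1.23 and 1.17 CPM in ND and fell by 1.09 (SE 0.15, adjusted p = 0.000108). Zfp36 fell by 0.40 (SE 0.09, adjusted p = 0.00355), Nr4a1 by 0.38 (SE 0.05, adjusted p = 0.000131) and Jund by 0.32 (SE 0.05, adjusted p = 0.000113), each with both HFD libraries below both ND libraries (35.9% of all genes). Jun did not pass, at 20.3 and 21.1 CPM against 20.7 and 19.9 CPM, a change of 0.02 (SE 0.05). Fos (−0.19), Fosb (−0.17), Junb (−0.16), Ier2 (−0.09) and Egr1 (−0.07) did not pass, the smallest adjusted p being 0.0783, for Junb. Zfp36 was lost without HFD 2 (adjusted p = 0.0663). In such a sum, fewer cells of a type and less RNA per cell cannot be told apart. The libraries differed in make-up: summed macrophage markers were at 28.6 and 30.6 CPM in HFD against 40.1 and 41.8 CPM in ND, Leydig markers at 193 and 191 against 356 and 302, and elongating spermatid markers at 27940 and 25550 against 32250 and 30590. Round spermatid markers were at 1182 and 1133 CPM against 1468 and 1461 CPM. Pachytene and later spermatocyte markers lay the other way, at 10760 and 10790 CPM against 10010 and 10060 CPM. With the classes weighted equally (limma), none of the 10 passed, and 3 of 25470 genes did.

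How reads were assigned to strands is not given in the sources used here, and 5 of the 10 genes overlap a gene on the opposite strand (GRCm38, GENCODE M21). Jun (chr4:95049034-95052222) overlaps Junos over 689 bases, Junb (chr8:84974484-84978718) overlaps Prdx2 over 351, Jund (chr8:70698949-70700616) overlaps Gm11175 over 919, Atf3 (chr1:191170296-191218039) overlaps Gm24748 over 108 and Zfp36 (chr7:28376784-28380253) overlaps Gm44710 over 1274. Gm11175 and Gm44710 stayed at or under 0.620 CPM in every class and library. Junos was at 2.33 to 2.79 CPM in pachytene and later spermatocyte-like cells, against 21.0 to 21.8 CPM of Jun. In round spermatid-like cells it was as high as Jun (2.26 to 3.00 CPM against 2.05 to 2.82 CPM). It was at 2.82 and 3.00 CPM in HFD against 2.26 and 2.36 CPM in ND. The part of Junos in the Jun value of 0.39 there was not tested. Prdx2, a peroxiredoxin, was at 510 to 681 CPM in Leydig-like cells and 293 to 361 CPM in Sertoli-like cells, where Junb was at 3.11 to 11.7 CPM. Its mean also exceeded that of Junb in pachytene and later (18.5 CPM against 1.26), early spermatocyte-like (23.8 against 1.57), spermatogonia-like (73.1 against 10.7), round spermatid-like (6.53 against 2.49) and elongating spermatid-like cells (4.71 against 2.26), so Junb levels in all these classes carry that uncertainty.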

How the data were processed

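Per the file headers (software version 3.0.2), the deposited matrices hold whole-number UMI counts, genes by barcodes and not normalized, with 13561 to 15290 barcodes and 143748262 to 154221188 UMIs per library. The genome build is mm10, per the submitters' processing notes, and the aligner is not given in the sources used here. All other values were computed from these counts. The deposited dense text copies were not used.

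Barcodes with under 200 genes or over 20% mitochondrial UMIs (13 to 42 per library) and doublets called by Scrublet (421 to 853) were left out. Cells were clustered with scanpy 1.11.5 (2000 variable genes without the 10 genes and the listed genes, 30 components, 15 neighbours, Leiden resolution 1). Clusters with a mixed marker score were split again. A name needed 3 detected markers, no more markers of another class than of its own among the top 10 genes, and either a marker score of at least 0.7 or at least 1 own marker among those 10. The second way was added after seeing the clusters and named pachytene cluster 4 (3567 cells). Clusters with no own marker there stayed unnamed if far shallower than their libraries; clusters 13 and 25, less shallow, kept their names. Counts were summed per library and class, for classes with at least 50 cells in every library; spermatogonia-like cells fell below this. Sums were tested with edgeR 4.0.16 (quasi-likelihood, filterByExpr, TMM, R 4.3.3) at an adjusted p of 0.05, a procedure tested on simulated data. Alternatives used DESeq2 1.42.0, limma 3.58.1, other filters, clusterings and each library left out. Intervals for shares of cells cover counting error only.

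The 10 genes and the lists were chosen with earlier results of these data known. All 10 are named in every tested class. From the other lists, diet changes are named for at most 4 genes per class, list and direction. Each was called, not overlapping and at 20 CPM or more. Cyr61, Ctgf, Mkl1 and Mkl2 were looked up as Ccn1, Ccn2, Mrtfa and Mrtfb, and for Ddit3, listed under 2 identifiers, the first was used. A few genes that these rules select are not reported here.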

Additional observations from a re-analysis of the deposited data

Results flagged for a closer look

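The change of Jund with diet differed between Leydig-like and macrophage-like cells by 1.05 on the log2 scale (interaction test in edgeR, adjusted p = 0.0485). Jund was lower in HFD in macrophage-like cells in both libraries and had a small positive change in Leydig-like cells. The change of Fosb differed between Leydig-like and round spermatid-like cells by 1.38 (adjusted p = 0.0463). Fosb was higher in both HFD libraries in Leydig-like cells and had a negative change in round spermatid-like cells, where its level was under 0.773 CPM. Both are listed here because the test of the difference itself passed, and both were lost in fits that left out single libraries. The pairs of classes were chosen by calls from the same counts, and adjustment covered the genes of a pair and not the pairs.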

How the results depend on the processing

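With 2 libraries per diet an exact permutation test cannot go below p = 0.33, so each call rests on the fit across all genes, and where 1 library was left out the lone library was assumed to vary like the others. Rare classes limit precision too: macrophage-like tests rest on the summed counts of 82 to 105 cells per library, and the shares of cells on 65 to 70 thinned cells. Of 373 alternative fits of 25 chosen changes, 322 kept their side of the threshold, 33 lost it, 18 gained it and 0 changed direction. The 25 were every call and all changes in macrophage-like cells, with Junb, Fos, Fosb, Egr1, Ier2 and Atf3 in Leydig-like cells. Junb in Sertoli-like, Jun in lymphocyte-like and Nr4a1 in round spermatid-like cells were added. Jun, Jund, Zfp36 and Nr4a1 in Leydig-like cells were not among the 25, so these counts do not cover them. Only changes called in the main fit could lose the threshold. In macrophage-like cells Atf3 lost it in 5 of 15 alternatives, Jun in 5 and Jund in 2. Jund lost it in 3 of 15 in elongating and 9 of 15 in round spermatid-like cells. In the whole testis each of the 4 calls lost it in 2 or 3 of 14. The fits share most of their counts, so they are not independent and their directions had little room to differ. The causes of the shifts below were not tested.

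Of the 10 genes, the number called in the whole testis was 4, and 0 against a 1.5-fold change or with classes weighted equally; it was 3 to 5 with 1 library left out. In Leydig-like cells it was 0 (87 of all 12264 genes called), and 3 with at most 10% mitochondrial UMIs (488 of 11747), 5 with doublets kept (1358 of 13241), 6 without the cluster led by nuclear long noncoding RNAs (chosen after seeing the data; 494 of 11630) and 0 to 2 with 1 library left out. In macrophage-like cells it was 3, and 1 by DESeq2, 1 with doublets kept, 0 against a 1.5-fold change, 0 with the listed genes among the variable genes and 2 to 4 with 1 library left out. In elongating spermatid-like cells it was 1, and 0 against a 1.5-fold change, 0 with doublets kept and 0 to 1 with 1 library left out. In round spermatid-like cells it was 1, and 0 by DESeq2, with no filter on low counts, against a 1.5-fold change, at Leiden resolution 2, with the listed genes allowed, at 10% mitochondrial UMIs or with doublets kept, and 0 to 1 with 1 library left out. It was 0 in Sertoli-like and lymphocyte-like cells, 0 to 1 with 1 library left out. In pachytene and later spermatocyte-like cells 1 gene, Jund, passed with doublets kept (2223 of 20438 genes called), against 0 (827 of 18066). Calls over all genes were 152 in macrophage-like cells, but 37 by DESeq2, 61 with doublets kept and 50 against 1.5-fold. With the listed genes allowed they were 64. Elongating spermatid-like cells had 759, but 1 against 1.5-fold and 484 with doublets kept. Round spermatid-like cells had 653, but 280 by DESeq2, 10 with no filter, 2 against 1.5-fold and 510 at Leiden resolution 2. They had 382 with the listed genes allowed, 378 at 10% mitochondrial UMIs and 151 with doublets kept.

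The Jund difference between Leydig-like and macrophage-like cells was 1.06 without the library term and 0.92 to 1.17 with 1 library left out; the Fosb difference was 1.37 and 1.01 to 1.73. The mean share of cells with at least 3 of the genes moved from 36.7% to 46.2% (thinned to 3000 UMIs) and 50.7% (not thinned) in Leydig-like cells, from 72.5% to 81.3% (3000) in macrophage-like cells, from 23.0% to 16.5% (3000) and 37.8% (not thinned) in lymphocyte-like cells, and from 0.546% to 1.61% (not thinned) in Sertoli-like cells.

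Over all genes, calls ranged from 33 (1.5-fold) to 3005 (without HFD 2) around 87 in Leydig-like cells, from 37 (DESeq2) to 163 around 152 in macrophage-like cells, from 2 (1.5-fold) to 2339 (without ND 1) around 653 in round spermatid-like cells and from 1 (1.5-fold) to 1558 (listed genes allowed) around 759 in elongating spermatid-like cells. Around 8728 in the whole testis they ranged from 3 (classes weighted equally) and 81 (1.5-fold) to 10173 (replicate block).

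The labels number the libraries 1 and 2 in each diet without saying that a number is shared. Deviations of same-numbered libraries correlated at −0.13 (Leydig-like) to 0.15 (lymphocyte-like). With the replicate block, 6 of the 10 genes were called in the whole testis (10173 genes in all against 8728); counts in every class stayed at 0 in Leydig-like, 3 in macrophage-like, and 1 in each spermatid class. Crossing the numbers in Leydig-like cells gave 1126 calls and 1 of the 10 genes.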
